A study of Mus musculus with 20 samples.

Results

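The genes described here are 45 mouse genes of the interferon response and of peptide processing for major histocompatibility complex (MHC) class I, out of 32991 genes with a value. They are named transcription factors, negative regulators, sensors, effectors, GTPases, chemokines and peptide-supply genes of this response. Their values come from the colon of 20 mice in a study of Pien Tze Huang (PZH), a Chinese patent medicine, in colitis-associated colorectal cancer. RNA of 5 male C57BL/6 mice per group was sequenced, with 1 library per mouse. Control mice received distilled water by gavage for 91 days, and PZH mice received PZH at 250 mg/kg per day over the same time. AOM/DSS mice received distilled water together with the tumour model, which is 1 intraperitoneal injection of azoxymethane (AOM), a carcinogen, followed by cycles of 5 days of 2% dextran sulfate sodium (DSS), which injures the colon lining, in the drinking water. PZH + AOM/DSS mice received the same model and PZH at 250 mg/kg per day from the first day on. Each library held whole colon tissue with all its cell types.

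Interferons are secreted proteins that bind receptors on nearly all cells. Type I and type III interferons act largely through the interferon-stimulated response element (ISRE), which a complex with STAT2 and IRF9 binds, and interferon gamma acts largely through the gamma-activated sequence (GAS). The genes switched on block viral replication, attack vacuoles that hold microbes, draw in T cells through the receptor CXCR3, and feed peptides to MHC class I. In the colon this response is known from infection, from colitis and from T cells that enter inflamed tissue.

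Each value is an FPKM (fragments scaled to transcript length and to the number of mapped fragments), summed over the transcripts of a gene, so levels can be compared between genes. Tests were made with limma on log2(FPKM + 1) across all genes that reached 0.5 FPKM in at least 5 of the 10 mice compared. A gene was called where its Benjamini-Hochberg adjusted P was under 0.05, and ± after a log2 difference is its standard error. In all comparisons of groups 43 members were tested, and Mx1 and Cxcl11 did not reach the filter. Since log2(FPKM + 1) shrinks differences of low genes, fold changes of genes near 1 FPKM are understated. Values in a list follow the mouse numbers, which are 17, 37, 41, 48 and 50 for Control, 8, 14, 27, 46 and 53 for PZH, 23, 30, 33, 44 and 52 for AOM/DSS, and 2, 13, 15, 35 and 36 for PZH + AOM/DSS.

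The depth that the steps between low values gave was 15.4 to 19.4 M fragments per mouse (M, 10 to the power of 6). It is an estimate, since only 39.8% to 47.6% of low values lay within 0.05 of a whole fragment. One label speaks of another tissue than colon, but of 9 colon epithelial markers, Vil1, Krt20, Cdx1, Lgals4, Muc2 and Car1 were above 50 FPKM in every mouse and Cdx2 was at 7.23 to 69.7 FPKM. Control mice 17 and 50 held squamous keratins, with Krt13 at 125 and 126 FPKM against 0.256 to 0.527 FPKM in the other Control mice. The leading count is therefore also given without both. Krt13 was at 3.06 to 11.5 FPKM in AOM/DSS mice and 1.42 to 12.4 FPKM in PZH + AOM/DSS mice. In PZH mice it was at 0.106 to 0.355 FPKM. Leaving out mice 17 and 50 thus does not make Control and AOM/DSS mice alike in Krt13. The other 2 colon epithelial markers were uneven, since Krt8 ranged from 0.0706 to 3071 FPKM, under 1 FPKM in 8 mice, and Epcam was listed at 0 in 13 of the 20 mice. A 0 or a very low value in these files can therefore be a failed estimate.

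The stretches before the start sites of the members are shown first, since the number of motifs varied between the role groups described below. RefSeq sequences (GRCm38.p6) of the 250 bases before a start were found for 32 of the 45 members. Nlrc5, Usp18, Zbp1, Mx1, Mx2, Oas2, Rtp4, Parp14, Gbp4, Gbp6, Iigp1, Cxcl11 and Tap2 had no entry. The ISRE core, searched on both strands as GAAA, any 2 bases and GAAA again, lay in 17 of the 32 members (53.1%), against 3.46% of all 27025 genes in the same table. Its longer form, the core followed by CT, which always holds the core, lay in 9 members (28.1%), against 0.255% of all genes. GAS, searched as TTC, any 3 bases and GAA, which reads alike on both strands, lay in 9 members (28.1%), against 8.13% of all genes. All 7 GTPases in the table held the ISRE core and 4 held GAS, and 7 of 13 antiviral effectors held the ISRE core. Neither of the 2 nucleic acid sensors in the table and none of the 3 peptide-supply genes held the ISRE core. GAS lay in 1 of those 3, Psmb8. These matches are letters in a window of set length and do not show binding.

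The windows printed carry the arrangements that recur, with the ISRE core and GAS in capitals and 12 bases on either side, written 5′ to 3′ on the strand of the gene. A core on the other strand reads as TTTC, any 2 bases and TTTC. Isg15, Ifit1, Ifit3 and Socs1 had several ISRE cores and no GAS, Irf1 had GAS alone, Cxcl10 had 1 ISRE core, and the last 4 had both motifs.
Isg15, chr4:156200863-156200908, minus strand: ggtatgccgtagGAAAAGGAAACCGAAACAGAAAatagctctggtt
Ifit1, chr19:34640773-34640825, plus strand: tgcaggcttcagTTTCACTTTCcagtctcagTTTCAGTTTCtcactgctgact
Ifit3, chr19:34583361-34583428, plus strand: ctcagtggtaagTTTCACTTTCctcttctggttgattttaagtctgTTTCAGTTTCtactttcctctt
Socs1, chr16:10785592-10785631, minus strand: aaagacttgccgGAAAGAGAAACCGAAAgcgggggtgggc
Irf1, chr11:53769912-53769944, plus strand: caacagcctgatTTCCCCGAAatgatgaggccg
Cxcl10, chr5:92349081-92349114, minus strand: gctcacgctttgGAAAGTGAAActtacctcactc
Gbp7, chr3:142530218-142530304, plus strand: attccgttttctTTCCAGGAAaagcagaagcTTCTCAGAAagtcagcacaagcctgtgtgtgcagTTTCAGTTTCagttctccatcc
Igtp, chr11:58199499-58199543, plus strand: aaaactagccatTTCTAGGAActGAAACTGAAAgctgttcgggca
Irgm2, chr11:58214890-58214934, plus strand: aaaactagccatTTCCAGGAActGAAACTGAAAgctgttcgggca
Tgtp1, chr11:48992302-48992346, minus strand: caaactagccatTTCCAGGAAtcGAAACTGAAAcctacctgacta
In Igtp, Irgm2 and Tgtp1 the ISRE core began 11 bases after the first base of GAS. The 12 bases before GAS differed at the first base alone in Tgtp1, while those after the core were the same in Igtp and Irgm2 and different in Tgtp1. This arrangement, noticed after the motifs had been listed, was found in 5 of 27025 genes (0.0185%), which are these 3 together with Tgtp2, a near-identical copy of Tgtp1, and Gm12185, whose exons overlap those of Tgtp1. GENCODE places the Irgm2 and Tgtp1 windows in an intron of a longer transcript of the same gene, and the other windows before the gene. GAS and the ISRE core overlapped in 1 member, Bst2.

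**Figure D1:**
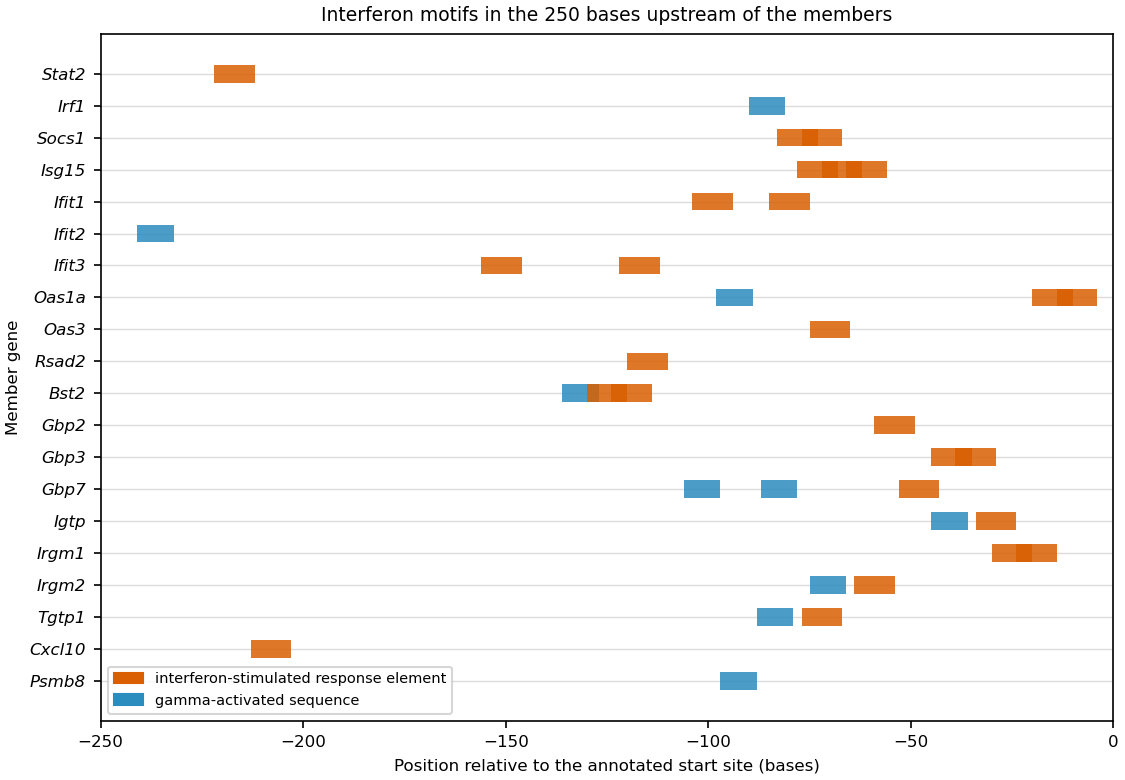
Positions of the ISRE core (orange) and GAS (blue) in the 250 bases before the start site of the 20 members with at least 1 match, on an axis of bases from the start. In the GTPases all motifs lie within 110 bases of the start, and in Igtp, Irgm2 and Tgtp1 a blue bar is followed by an orange one at the same distance.

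The comparison of AOM/DSS with Control asks how the response stood in colon after the tumour model. Of the 43 members tested, 23 were higher and 1, Tap2, was lower (23.6% of all 15812 genes tested were called, 16.4% higher and 7.23% lower). The 10 GTPases gave 8 called higher, the 18 antiviral effectors 7, and the 4 peptide-supply genes none. Differences ranged from -0.51 in Tap2 to 2.29 in Usp18, with a median of 0.88 over the members tested, against 0.09 over all genes. In 14 members the difference was above 2-fold as well as called, which held for 5.39% of all genes. In 15 members tested the groups did not overlap and AOM/DSS was higher, which held for 13% of all genes. Before adjustment, 29 members were higher and 1 was lower at P under 0.05 (24.2% and 11.8% of all genes), and 39 lay above 0 (60% of all genes). Of the members tested, 34 were at 0.5 FPKM or more in each of the 10 mice, and none was under it in all 5 mice of a group. Without Control mice 17 and 50, 15 members were called, all higher, and with any single mouse left out the count was between 20 and 28. The share of all genes called in these settings is not given.

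Markers of several cell types differed in the same comparison. Among markers of T and NK cells, 5 of the 8 tested were called higher in AOM/DSS mice, and the summed level of the 10 markers was 5.50 to 15.9 FPKM in Control mice and 14.3 to 31.1 FPKM in AOM/DSS mice. Myeloid markers gave 5 of 8 called higher, with sums of 213 to 415 FPKM in Control mice and 359.6 to 551 FPKM in AOM/DSS mice. Lyz2, itself not called, made up most of the myeloid sum in every mouse. All 4 neutrophil markers tested were called higher, with sums of 0.188 to 30.3 FPKM and 97.7 to 538 FPKM. In AOM/DSS mice S100a8 and S100a9 made up most of the neutrophil sum. Of 4 markers of plasmacytoid dendritic cells, which make type I interferon, Tcf4 and Ccr9 were tested and higher. The sum of the 4 markers was 9.03 to 11.9 FPKM in Control mice and 19.9 to 33.8 FPKM in AOM/DSS mice, nearly all of it Tcf4, which other cell types also express. Siglech did not exceed 0.847 FPKM, and Cox6a2 had a mean of 0.298 FPKM in Control mice and was listed at 0 in 4 of 5 AOM/DSS mice. Smooth muscle markers were called lower in 6 of 6, with sums of 2244 to 5172 FPKM and 996 to 1734 FPKM. In whole tissue, more cells of a type and more RNA per cell cannot be told apart, and the part of these cell types in the member differences was not tested.

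**Figure D2:**
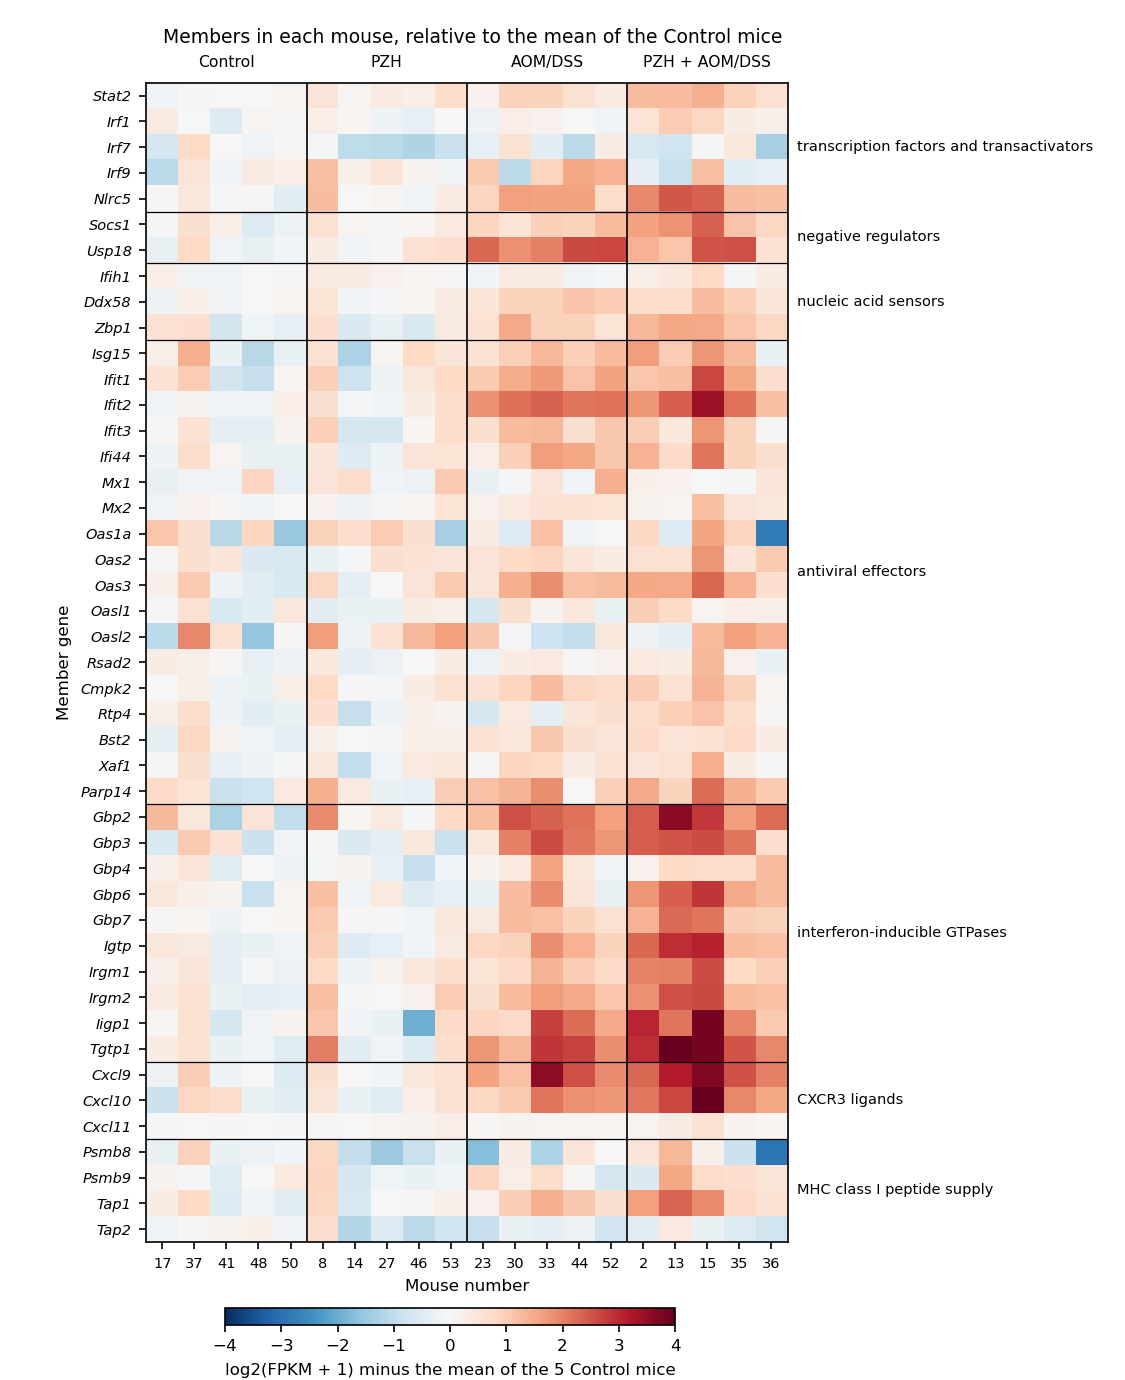
Each row is 1 of the 45 members and each column 1 mouse, and colour gives log2(FPKM + 1) minus the mean of the 5 Control mice, from blue (lower) to red (higher). Except for Gbp4 and Gbp6 in some AOM/DSS mice, the GTPases, Cxcl9 and Cxcl10 are red in all mice of both model groups, in most of them deepest in PZH + AOM/DSS mice 13 and 15, while the peptide-supply genes are mixed.

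A second view of the model, on mice not used above, is PZH + AOM/DSS against PZH. Here 12 members were higher and none was lower (2.42% of all 15636 genes tested were called, 1.74% higher and 0.678% lower). They were 6 GTPases, Cxcl9 and Cxcl10, Nlrc5, Socs1, Zbp1 and Ifit2, and each differed by more than 2-fold (0.915% of all genes did). The median over the members tested was 0.98, against 0.04 over all genes, and 40 of 43 were above 0, against 56.2% of all genes. At an unadjusted P under 0.05, 29 members were higher and none was lower (13% and 7.89% of all genes). In 11 members the groups did not overlap and PZH + AOM/DSS was higher (5% of all genes), and in none was it lower (2.37%). Of the 12 members called, 10 (83.3%) were also among the 23 called higher in AOM/DSS against Control (43.5% of the 23), and Gbp4 and Gbp6 were not. The same overlap over all genes is not given, so whether that of the members is larger cannot be said. The count of 12 depended on single mice and on the fit. It was 2 with no filter on low genes and 21 with all 20 mice in 1 model. It was also 1 or 2 without PZH mouse 14, 27, 46 or 53, 5 without PZH + AOM/DSS mouse 2 or 13, 3 without mouse 15 and 16 without mouse 36. Cxcl9 was the 1 member called in every alternative. The adjustment runs over all genes, and the share of all genes called in each alternative is not given. The 12 differences stayed above 0 in all of them, with 0.85 in Gbp4 the smallest. T and NK markers were called higher in 3 of 8 tested, with sums of 6.64 to 14.4 FPKM in PZH mice and 15.3 to 30.9 FPKM in PZH + AOM/DSS mice. Also called higher were the myeloid markers Cd68 and Itgax (2 of 8 tested, sums of 175 to 364 and 328 to 605 FPKM), the neutrophil marker Retnlg (1 of 2, sums of 0.785 to 10.4 and 5.07 to 267 FPKM) and the plasma cell marker Mzb1. The part of these cell types was not tested here either.

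**Figure D3:**
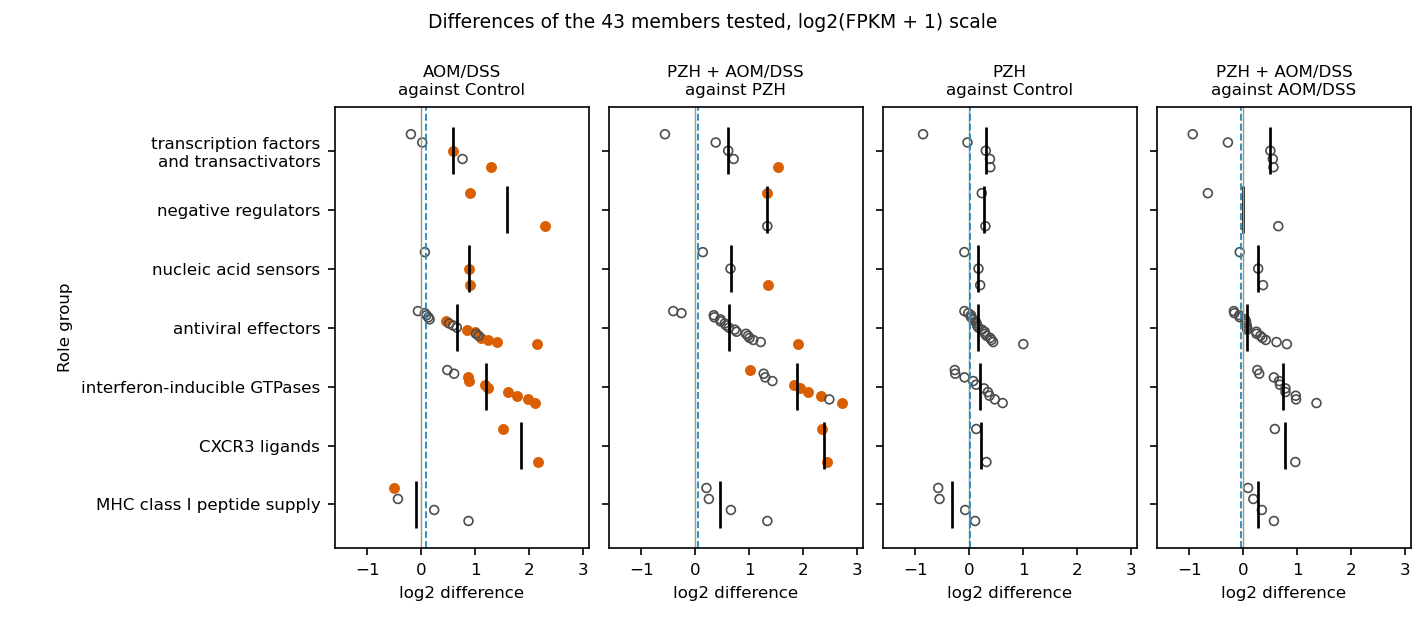
Log2 differences of the 43 members tested, 1 circle per gene, by role group and comparison. Filled orange circles are called, black bars are role group medians, the grey line is 0 and the dashed blue line is the median of all genes tested. In both comparisons with the model against mice without it, the circles of the GTPases and CXCR3 ligands lie to the right of 0.

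PZH without the model was compared with Control. No member was called by limma (0.00645% of all 15506 genes tested were called), with 1 member higher (Stat2) and 1 lower (Irf7) at an unadjusted P under 0.05, against 4.34% and 4.5% of all genes. Their log2 differences were 0.38 ± 0.13, adjusted P = 0.529 and -0.86 ± 0.28, adjusted P = 0.512. The median over the members tested was 0.17, against 0.01 over all genes, and 32 of 43 were above 0 (51.3% of all genes). PZH and Control mice overlapped in each of the 43 (in 0.909% of all genes they did not and PZH was higher, in 0.896% lower). Smooth muscle markers were lower in PZH mice at an unadjusted P under 0.05 in 5 of 6, none called. Their sums were 2244 to 5172 FPKM in Control mice and 1039 to 2412 FPKM in PZH mice. No T and NK or myeloid marker reached that P. Of the colon epithelial markers, Muc2 was higher and Car1 lower at that P. The part of these cell types was not tested. PZH mouse 8 was the highest PZH mouse in 29 of the 45 members, among them 8 of the 10 GTPases.

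PZH in mice with the model was examined in PZH + AOM/DSS against AOM/DSS, the comparison closest to the question of the study. No member was called by limma (0.00629% of all 15888 genes tested were called). At an unadjusted P under 0.05, 7 members were higher and none was lower, against 3.51% and 8.21% of all genes. They were Stat2, Irf1, Socs1, Gbp6, Gbp7, Igtp and Irgm1, with adjusted P from 0.356 up. The median over the members tested was 0.32, against -0.04 over all genes, and 35 of 43 were above 0, against 43.4% of all genes. All 10 GTPases were above 0, from 0.26 to 1.35 with a median of 0.73. Both model groups overlapped in each of the 43 (in 0.403% of all genes they did not and PZH + AOM/DSS was higher, in 0.673% lower). The 17 antiviral effectors tested had a median of 0.07. The summed T and NK markers were 14.3 to 31.1 FPKM in AOM/DSS mice and 15.3 to 30.9 FPKM in PZH + AOM/DSS mice. Neutrophil markers had an unadjusted P under 0.05 in 4 of 4 tested, all lower, with a median log2 difference of -2.05 and none called. Also lower at that level were the plasmacytoid dendritic markers Tcf4 and Ccr9 (2 of 2 tested) and the myeloid markers Itgam and Cd14 (2 of 8), none called. The colon epithelial markers Cdx2 and Car1 (2 of 9) were higher at that level, neither called. The part of these cells in the member differences was not tested.

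The mice of the PZH + AOM/DSS group were spread out, as were those of the other groups. PZH + AOM/DSS mouse 15 was the highest of its group in 28 of the 45 members, mouse 36 the lowest in 33, and mouse 13 the highest in 10. AOM/DSS mouse 33 was the highest of its group in 24 members, and mouse 23 the lowest in 28. Control mouse 37 was the highest of its group in 29 members and the lowest in none. The interaction, which asks whether the PZH difference itself differed between mice with and without the model, was called by limma in none of the 44 members tested (0.0118% of all 16936 genes were called, 0.0059% in each direction). At an unadjusted P under 0.05, 1 member was above 0, Irf1, with 0.59 ± 0.24, adjusted P = 0.424, and none was below 0, against 3.41% and 6.92% of all genes. The median over these members was 0.20, against -0.05 over all genes, and 43.5% of all genes were above 0.

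Of the 5 transcription factors and transactivators, Stat2 and Nlrc5 were higher in AOM/DSS mice than in Control mice. Nlrc5 is the transactivator of MHC class I genes. Nlrc5 read 1.57, 2.38, 1.35, 1.59 and 0.874 FPKM in the Control mice and 3.54, 6.79, 6.72, 6.69 and 3.17 FPKM in the AOM/DSS mice. Nlrc5 in the PZH mice was 4.87, 1.52, 1.72, 1.27 and 2.12 FPKM, against 8.42, 12.9, 11.98, 4.93 and 4.74 FPKM in the PZH + AOM/DSS mice. Control and AOM/DSS mice did not overlap (1.29 ± 0.23, adjusted P = 0.00283). PZH + AOM/DSS was also called above PZH (1.53 ± 0.33, adjusted P = 0.0420), although PZH mouse 8 lay above the lowest of them. Against AOM/DSS the difference of 0.54 was not called (adjusted P = 0.512). Stat2, a partner in the factor that binds the ISRE, differed by 0.59 ± 0.16, adjusted P = 0.0206 in AOM/DSS against Control, which was not called without AOM/DSS mouse 33 or without Control mice 17 and 50.

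Irf1, a factor made in response to interferon gamma, was the most abundant of the 5. Irf1 read 80.9, 63.0, 43.8, 67.6 and 65.5 FPKM in the Control mice and 53.2, 75.3, 71.8, 64.0 and 57.4 FPKM in the AOM/DSS mice. Irf1 in the PZH mice was 76.1, 65.8, 54.9, 49.5 and 64.3 FPKM, against 92.3, 128, 112, 76.9 and 72.9 FPKM in the PZH + AOM/DSS mice. The first 3 groups lay in the same range, and PZH + AOM/DSS mice 2, 13 and 15 lay above all mice of those groups. Its difference from AOM/DSS was 0.56 ± 0.17, with an unadjusted P of 0.00775 and an adjusted P of 0.356.

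Irf7 amplifies the type I response, and IRF9 is a DNA-binding partner of STAT2. Irf7 read 10.9, 33.02, 18.6, 16.7 and 19.3 FPKM in the Control mice and 14.55, 28.6, 13.5, 8.19 and 23.0001 FPKM in the AOM/DSS mice. Irf7 in the PZH mice was 17.4, 8.57, 8.22, 7.48 and 9.65 FPKM, against 11.5, 10.2, 17.9, 25.3 and 6.77 FPKM in the PZH + AOM/DSS mice. Groups overlapped in each comparison. Irf9 read 3.62, 12.498, 7.83, 11.1 and 10.4 FPKM in the Control mice and 18.8, 3.62, 16.4, 26.5 and 23.7 FPKM in the AOM/DSS mice. Irf9 in the PZH mice was 20.6, 9.94, 12.6, 9.33 and 7.79 FPKM, against 6.21, 4.09, 20.8, 5.87 and 6.55 FPKM in the PZH + AOM/DSS mice. Within each model group 1 mouse stood apart, AOM/DSS mouse 30 being low and PZH + AOM/DSS mouse 15 high. Irf9 was not called in any comparison, and without AOM/DSS mouse 30 it was called higher in AOM/DSS than in Control, by 1.21 (adjusted P = 0.0192). Exons of Irf7 overlap Phrf1 on the other strand and those of Irf9 overlap Rnf31, and the library kit did not mark strand.

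Both negative regulators were higher in AOM/DSS mice. USP18 removes ISG15 from proteins and blocks the type I receptor. Usp18 read 0.933, 3.09, 1.14, 0.929 and 1.19 FPKM in the Control mice and 10.6, 7.27, 8.45, 13.7 and 14.03 FPKM in the AOM/DSS mice. Usp18 in the PZH mice was 1.92, 1.18, 1.42, 2.48 and 2.76 FPKM, against 5.14, 4.05, 12.4, 12.9 and 2.54 FPKM in the PZH + AOM/DSS mice. No AOM/DSS mouse overlapped the Control mice. On the log2(FPKM + 1) scale the difference of 2.29 ± 0.25 was the largest of any member (fold 4.89 on that scale, adjusted P = 0.000132). The PZH + AOM/DSS mice split, with mice 15 and 35 at AOM/DSS levels and mouse 36 within the PZH range. Against PZH they were not called (1.33 ± 0.37, adjusted P = 0.0854).

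SOCS1 inhibits the JAK kinases below interferon receptors. Socs1 read 1.004, 2.302, 1.40, 0.444 and 0.811 FPKM in the Control mice and 2.79, 2.11, 3.11, 2.89 and 4.07 FPKM in the AOM/DSS mice. Socs1 in the PZH mice was 2.24, 1.29, 1.01, 1.23 and 1.78 FPKM, against 5.49, 6.35, 9.79, 3.65 and 2.75 FPKM in the PZH + AOM/DSS mice. Control mouse 37 overlapped the AOM/DSS mice, and the difference was called (0.90 ± 0.22, adjusted P = 0.0129). All PZH + AOM/DSS mice lay above all PZH mice (1.32 ± 0.27, adjusted P = 0.0381), and 3 of them, mice 2, 13 and 15, lay above every AOM/DSS mouse.

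Among the 3 nucleic acid sensors, Ddx58 and Zbp1 were higher in AOM/DSS mice and Ifih1 was not called. Ddx58 encodes RIG-I, which senses viral RNA. Ddx58 read 6.08, 8.72, 6.47, 7.32 and 7.56 FPKM in the Control mice and 10.4, 14.2, 14.3, 17.03 and 15.7 FPKM in the AOM/DSS mice. Ddx58 in the PZH mice was 10.8, 6.61, 6.999, 7.84 and 9.32 FPKM, against 12.4, 12.53, 18.4, 14.7 and 10.3 FPKM in the PZH + AOM/DSS mice. The AOM/DSS mice all lay above the Control mice (0.89 ± 0.14, adjusted P = 0.00165). ZBP1 senses Z-form nucleic acid and can start necroptosis. Zbp1 read 12.03, 12.9, 4.24, 6.83 and 5.92 FPKM in the Control mice and 12.1, 24.2, 15.6, 15.5 and 11.8 FPKM in the AOM/DSS mice. Zbp1 in the PZH mice was 12.8, 4.87, 6.17, 4.74 and 10.2 FPKM, against 20.9, 24.5, 23.8, 18.03 and 14.6 FPKM in the PZH + AOM/DSS mice. Control mice 17 and 37 overlapped the AOM/DSS mice, and the call (0.90 ± 0.29, adjusted P = 0.0448) was lost with no filter, with another scaling, without Control mouse 41, 48 or 50 or without any 1 of the 5 AOM/DSS mice. Against PZH, no PZH + AOM/DSS mouse overlapped (1.36 ± 0.26, adjusted P = 0.0325). Ifih1 encodes MDA5, a sensor of long double-stranded RNA. Ifih1 read 18.1, 13.3, 13.04, 14.8 and 15.2 FPKM in the Control mice and 13.5, 19.3, 18.9, 12.98 and 14.1 FPKM in the AOM/DSS mice. Ifih1 in the PZH mice was 19.3, 18.7, 16.8, 15.8 and 15.5 FPKM, against 17.6, 20.1, 26.7, 14.02 and 18.6 FPKM in the PZH + AOM/DSS mice. All 4 groups overlapped, with a difference of 0.07 ± 0.14 in AOM/DSS against Control.

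The antiviral effectors split within the family. Called higher in AOM/DSS mice were Ifit1, Ifit2, Ifit3, Ifi44, Mx2, Oas3 and Cmpk2, and none was called lower. Their differences ran from 0.46 in Mx2 to 2.15 in Ifit2. Ifit2, a protein of the family that binds viral RNA, had the smallest adjusted P of all members. Ifit2 read 2.03, 2.67, 1.95, 2.02 and 2.99 FPKM in the Control mice and 10.8, 14.4, 16.03, 13.6 and 13.97 FPKM in the AOM/DSS mice. Ifit2 in the PZH mice was 4.196, 2.17, 2.06, 3.03 and 4.35 FPKM, against 10.3, 16.2, 35.1, 13.9 and 6.63 FPKM in the PZH + AOM/DSS mice. The 2 groups without the model stayed at or below 4.35 FPKM and the 2 with it at or above 6.63 FPKM. Differences were 2.15 ± 0.14, adjusted P = 4.56e-06 in AOM/DSS against Control and 1.91 ± 0.36, adjusted P = 0.0325 in PZH + AOM/DSS against PZH. Ifit1, which binds RNA with a foreign 5′ end, was higher as well. Ifit1 read 7.82, 11.01, 2.50, 2.09 and 5.14 FPKM in the Control mice and 11.2, 15.3, 18.1, 11.99 and 16.99 FPKM in the AOM/DSS mice. Ifit1 in the PZH mice was 10.3, 2.34, 4.11, 7.07 and 9.15 FPKM, against 11.8, 12.6, 36.2, 16.3 and 8.42 FPKM in the PZH + AOM/DSS mice. Control mouse 37 came closest to the AOM/DSS mice, without overlap (1.40 ± 0.35, adjusted P = 0.0161), and PZH + AOM/DSS mouse 15 stood above all others.

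The 2 most abundant effectors, Bst2 and Oas1a, were not called in any comparison. BST2 tethers budding viruses to the cell. Bst2 read 21.5, 51.1, 30.8, 24.6 and 21.03 FPKM in the Control mice and 43.5, 39.1, 60.3, 44.6 and 40.6 FPKM in the AOM/DSS mice. Bst2 in the PZH mice was 33.2, 27.8, 26.6, 33.4 and 32.8 FPKM, against 48.1, 41.05, 42.5, 49.1 and 34.5 FPKM in the PZH + AOM/DSS mice. Control mouse 37 lay within the AOM/DSS range, and Bst2 was not called (0.66 ± 0.23, adjusted P = 0.0603). Without mouse 37 it was called, at 0.87 (adjusted P = 0.00428). OAS enzymes make the messenger that activates RNase L. Oas1a read 40.5, 28.9, 7.98, 33.6 and 5.72 FPKM in the Control mice and 22.8, 12.1, 41.8, 16.3 and 18.1 FPKM in the AOM/DSS mice. Oas1a in the PZH mice was 35.3, 29.7, 37.4, 29.0 and 6.66 FPKM, against 32.98, 12.02, 55.9, 33.8 and 1.74 FPKM in the PZH + AOM/DSS mice. Every group held both high and low mice, and Oas1a has close paralogs among which fragments can be split.

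Oasl2 and Rtp4 were not called in any comparison. Oasl2 read 3.36, 32.8, 12.7, 2.04 and 8.18 FPKM in the Control mice and 17.7, 7.61, 4.05, 3.61 and 11.1 FPKM in the AOM/DSS mice. Oasl2 in the PZH mice was 27.6, 6.79, 12.3, 21.04 and 26.7 FPKM, against 6.82, 5.84, 20.6, 26.6 and 22.2 FPKM in the PZH + AOM/DSS mice. Its groups overlapped throughout, and its standard error of 0.63 in AOM/DSS against Control was the largest of any member tested there. RTP4, a chaperone of receptors, was next. Rtp4 read 6.31, 8.97, 4.41, 3.50 and 4.09 FPKM in the Control mice and 2.88, 7.15, 3.74, 7.72 and 8.68 FPKM in the AOM/DSS mice. Rtp4 in the PZH mice was 8.86, 2.29, 4.41, 6.07 and 5.81 FPKM, against 9.004, 11.1, 12.7, 9.15 and 5.33 FPKM in the PZH + AOM/DSS mice. The PZH + AOM/DSS mice 2, 13, 15 and 35 lay above all AOM/DSS mice, with a difference of 0.61 ± 0.29 (adjusted P = 0.447). Isg15, the ubiquitin-like modifier, differed by 1.01 ± 0.38, adjusted P = 0.0804 in AOM/DSS against Control and was not called, nor were Oas2, Xaf1 and Parp14, all 4 with an unadjusted P under 0.05. Oasl1 and Rsad2 gave 0.07 and 0.13. Mx1 did not exceed 2.37 FPKM in any mouse.

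The interferon-inducible GTPases attack vacuoles that hold microbes. They gave the highest share of calls among the role groups with more than 2 members tested, with 8 of 10 higher in AOM/DSS mice and 6 of 10 higher in PZH + AOM/DSS mice than in PZH mice. In AOM/DSS against Control the called differences ran from 0.86 in Gbp7 to 2.098 in Tgtp1, and Gbp4 and Gbp6 were not called. Tgtp1 read 2.32, 3.16, 1.27, 1.46 and 0.956 FPKM in the Control mice and 8.29, 5.73, 18.8, 16.6 and 8.90 FPKM in the AOM/DSS mice. Tgtp1 in the PZH mice was 10.2, 1.05, 1.497, 0.924 and 3.48 FPKM, against 20.3, 46.1, 38.0, 14.51 and 9.31 FPKM in the PZH + AOM/DSS mice. No AOM/DSS mouse overlapped the Control mice (2.098 ± 0.32, adjusted P = 0.00115). Against PZH the difference was 2.72 ± 0.55, adjusted P = 0.0366, with PZH mouse 8 above the lowest PZH + AOM/DSS mouse. Tgtp2, singled out after its values were seen as the near-identical copy, differed by 1.98 ± 0.29, adjusted P = 0.000839 and 2.54 ± 0.46, adjusted P = 0.0283, and fragments of the pair cannot be told apart with certainty.

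Gbp2, a guanylate-binding protein, had the next largest difference in AOM/DSS against Control. Gbp2 read 19.1, 10.2, 2.41, 10.9 and 3.15 FPKM in the Control mice and 18.01, 47.0, 41.4, 36.1 and 24.5 FPKM in the AOM/DSS mice. Gbp2 in the PZH mice was 29.5, 7.71, 9.53, 7.01 and 13.3 FPKM, against 43.2, 98.8, 57.0, 24.9 and 38.1 FPKM in the PZH + AOM/DSS mice. Control mouse 17 overlapped the lowest AOM/DSS mouse, and the difference was called (1.98 ± 0.48, adjusted P = 0.0127). IRGM1 is a regulatory GTPase of the immunity-related family. Irgm1 read 20.7, 25.3, 13.4, 17.3 and 15.2 FPKM in the Control mice and 26.98, 30.9, 47.4, 37.1 and 31.5 FPKM in the AOM/DSS mice. Irgm1 in the PZH mice was 32.0, 15.6, 19.7, 24.8 and 29.6 FPKM, against 74.2, 75.0, 116, 31.7 and 35.6 FPKM in the PZH + AOM/DSS mice. All AOM/DSS mice lay above the Control mice (0.89 ± 0.19, adjusted P = 0.00724). PZH + AOM/DSS mice 2, 13 and 15 were above every AOM/DSS mouse, and mice 35 and 36 were within their range (0.78 ± 0.33, adjusted P = 0.404, unadjusted P = 0.0389).

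Gbp6 had the largest difference of any member between PZH + AOM/DSS and AOM/DSS. Gbp6 read 1.95, 1.47, 1.37, 0.169 and 1.2998 FPKM in the Control mice and 0.736, 4.07, 7.07, 2.09 and 0.742 FPKM in the AOM/DSS mice. Gbp6 in the PZH mice was 3.95, 0.943, 1.83, 0.518 and 0.733 FPKM, against 6.26, 10.4, 14.8, 5.17 and 4.19 FPKM in the PZH + AOM/DSS mice. AOM/DSS mice 23 and 52 were at Control levels and mouse 33 was the highest, and AOM/DSS was not called against Control (0.61 ± 0.43, adjusted P = 0.349). The PZH + AOM/DSS mice lay above all PZH mice (1.84 ± 0.38, adjusted P = 0.0387) and overlapped the AOM/DSS mice (1.35 ± 0.47, adjusted P = 0.358). Igtp and Irgm2, which share the motif pair shown above and overlapping exons, had differences of 1.18 ± 0.24, adjusted P = 0.00524 and 1.24 ± 0.25, adjusted P = 0.00494 in AOM/DSS against Control. Against AOM/DSS, the PZH + AOM/DSS mice differed by 0.98 ± 0.39 in Igtp, with mice 2, 13 and 15 at 47.6, 74.9 and 82.5 FPKM above the highest AOM/DSS mouse at 34.6 FPKM. Gbp3, Gbp4, Gbp7 and Iigp1 differed from AOM/DSS by 0.26 to 0.78, none called.

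**Figure D4:**
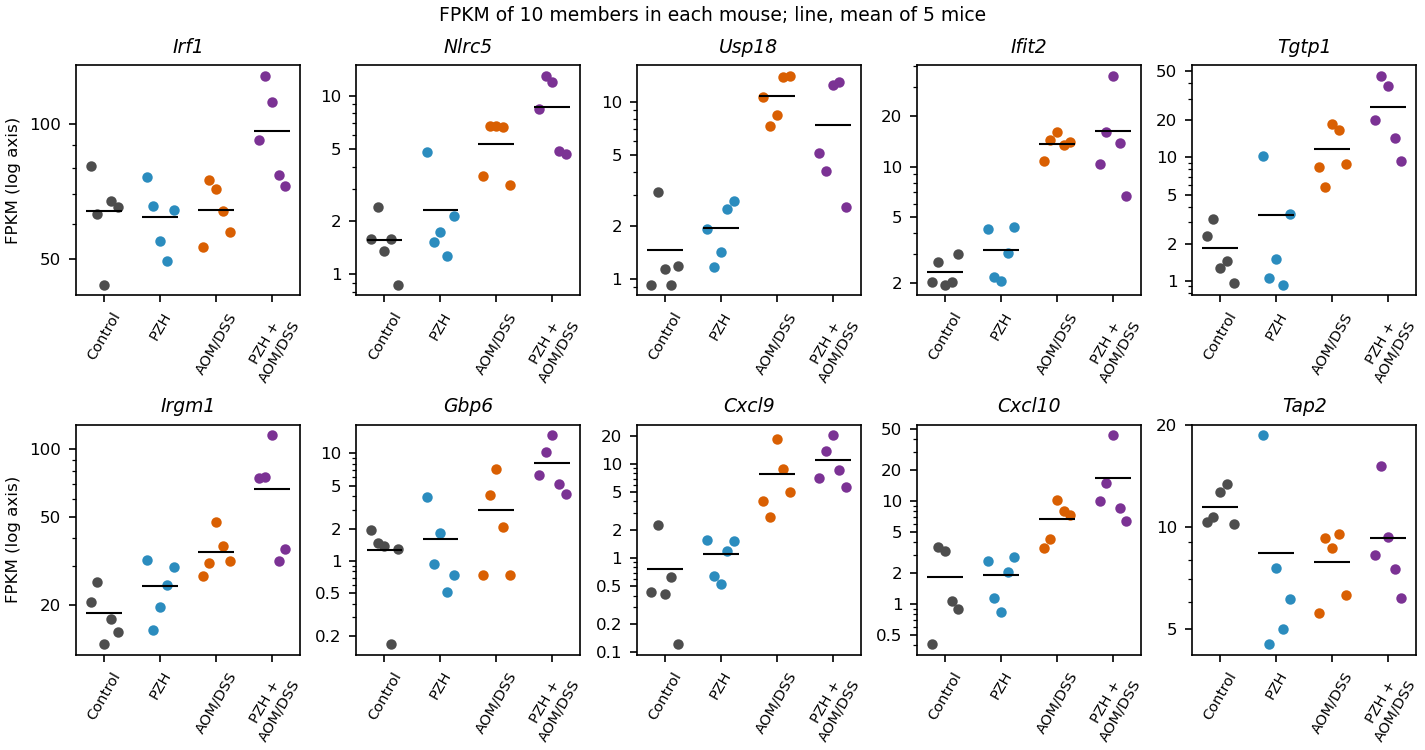
FPKM of 10 members on a log axis, 1 dot per mouse in the order of mouse numbers and a black line at the mean of 5 mice, for Control (grey), PZH (blue), AOM/DSS (orange) and PZH + AOM/DSS (purple). In Irf1, Irgm1 and Nlrc5 the first 3 purple dots, mice 2, 13 and 15, lie above all orange dots, and in Usp18 the purple dots spread from PZH to AOM/DSS levels.

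CXCL9, CXCL10 and CXCL11 attract T cells and NK cells that carry CXCR3. Both ligands that reached the filter were higher with the model, in mice with and without PZH. Cxcl9 read 0.438, 2.22, 0.418, 0.624 and 0.122 FPKM in the Control mice and 4.07, 2.73, 18.4, 8.85 and 5.07 FPKM in the AOM/DSS mice. Cxcl9 in the PZH mice was 1.57, 0.638, 0.536, 1.19 and 1.52 FPKM, against 7.12, 13.8, 20.3, 8.71 and 5.65 FPKM in the PZH + AOM/DSS mice. The groups with and without the model did not overlap. Differences were 2.17 ± 0.43, adjusted P = 0.00508 in AOM/DSS against Control and 2.43 ± 0.31, adjusted P = 0.0100 in PZH + AOM/DSS against PZH. Cxcl10 read 0.406, 3.57, 3.25, 1.06 and 0.899 FPKM in the Control mice and 3.50, 4.27, 10.2, 8.11 and 7.38 FPKM in the AOM/DSS mice. Cxcl10 in the PZH mice was 2.60, 1.14, 0.833, 2.05 and 2.88 FPKM, against 10.1, 15.1, 44.2, 8.61 and 6.40 FPKM in the PZH + AOM/DSS mice. Control mouse 37 lay just above the lowest AOM/DSS mouse (1.51 ± 0.37, adjusted P = 0.0142), and no PZH mouse reached the PZH + AOM/DSS mice (2.35 ± 0.44, adjusted P = 0.0312). Against AOM/DSS, mice 13 and 15 were the 2 PZH + AOM/DSS mice above the highest AOM/DSS mouse (0.96 ± 0.46, adjusted P = 0.446). Cxcl11 did not exceed 0.571 FPKM, in PZH + AOM/DSS mouse 15. Exons of Cxcl10 overlap Art3 on the other strand.

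Of the 4 peptide-supply genes, Tap2 was called lower in AOM/DSS mice and none was called higher. TAP1 and TAP2 form the transporter that carries peptides into the endoplasmic reticulum, and PSMB8 and PSMB9 are subunits of the immunoproteasome that cuts them. Tap2 read 10.3, 10.7, 12.7, 13.4 and 10.2 FPKM in the Control mice and 5.57, 9.26, 8.65, 9.503 and 6.29 FPKM in the AOM/DSS mice. Tap2 in the PZH mice was 18.7, 4.502, 7.56, 4.99 and 6.10 FPKM, against 8.29, 15.1, 9.36, 7.49 and 6.17 FPKM in the PZH + AOM/DSS mice. Every AOM/DSS mouse was below every Control mouse, as in 5.43% of all genes, and the difference was called (-0.51 ± 0.16, adjusted P = 0.0399). That call was lost with no filter, with all 20 mice in 1 model, without any 1 Control mouse, without AOM/DSS mouse 23, 33 or 52, and without Control mice 17 and 50 together. Its partner Tap1 was above 0 in the same comparison and was not called. Tap1 read 14.6, 20.9, 7.80, 10.2 and 8.48 FPKM in the Control mice and 13.3, 24.1, 33.6, 25.8 and 18.9 FPKM in the AOM/DSS mice. Tap1 in the PZH mice was 21.5, 7.33, 11.7, 12.04 and 13.8 FPKM, against 38.6, 62.9, 45.5, 20.4 and 17.7 FPKM in the PZH + AOM/DSS mice. Tap1 missed the threshold (0.88 ± 0.29, adjusted P = 0.0508) and was called without Control mouse 37 (1.07, adjusted P = 0.0168) or AOM/DSS mouse 23 (1.05, adjusted P = 0.0292).

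Psmb8 was the most abundant of the 4. Psmb8 read 26.4, 62.9, 27.1, 27.5 and 30.3 FPKM in the Control mice and 9.39, 41.7, 12.9, 45.9 and 33.001 FPKM in the AOM/DSS mice. Psmb8 in the PZH mice was 59.0, 16.3, 11.2, 17.2 and 27.04 FPKM, against 46.4, 84.2, 38.1, 17.7 and 3.52 FPKM in the PZH + AOM/DSS mice. Its lowest and highest values were both in PZH + AOM/DSS mice, 36 and 13, and no comparison was called. Psmb9 gave 0.24 ± 0.28, adjusted P = 0.590 in AOM/DSS against Control. Exons of Psmb9 and Tap1 overlap on opposite strands.

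The rest of the pathway was read from lists of other genes, whose counts in AOM/DSS against Control stand beside 16.4% of all genes called higher. Of 20 interferon genes, 3 had a row in the files and none reached the filter. Ifng, the gene of interferon gamma, read 0, 0.181, 0.0426, 0 and 0.0121 FPKM in the Control mice and 0.0975, 0.264, 0.415, 0.467 and 0 FPKM in the AOM/DSS mice. Ifng in the PZH mice was 0, 0.0510, 0, 0 and 0 FPKM, against 0.363, 0.359, 2.099, 0.284 and 0.05002 FPKM in the PZH + AOM/DSS mice. The highest value was in PZH + AOM/DSS mouse 15, which was also the highest of that group in 28 members. A link between Ifng and the members was not tested. Ifnk, an interferon of epithelia, did not exceed 0.286 FPKM.

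Single genes of the interferon receptors and their signalling are given without a count over their list. Ifnar1, a chain of the type I receptor, differed by 0.60 ± 0.10, adjusted P = 0.00159 in AOM/DSS against Control, and Irf5 by 0.69 ± 0.22, adjusted P = 0.0452. Ifngr1 and Ifngr2, the chains of the interferon gamma receptor, were the most abundant, with Control means of 163 and 43.7 FPKM, and were not called.

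Among 15 genes of sensing upstream of interferon, 3 were higher in AOM/DSS mice, a share near the 16.4% of all genes, and none in the other comparisons. They were Tmem173, which encodes STING (1.55 ± 0.21, adjusted P = 0.000588), Mb21d1, the DNA sensor cGAS upstream of it (0.49 ± 0.14, adjusted P = 0.0303), and Eif2ak2, the RNA-activated kinase PKR (0.47 ± 0.09, adjusted P = 0.00484). Trim25, a ligase that activates RIG-I, was the most abundant and gave -0.45 ± 0.24, adjusted P = 0.203. Of 8 other negative regulators, Socs3 and Ptpn6 were higher (2.45 ± 0.28, adjusted P = 0.000178 and 0.67 ± 0.16, adjusted P = 0.0132) and none was called elsewhere. Otud5 gave 0.37 ± 0.21, adjusted P = 0.239.

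MHC class I chains and loading factors were called higher in 5 of 15 in AOM/DSS mice, none lower, and in no other comparison. B2m, the light chain, and H2-K1, a classical heavy chain, were abundant in every mouse, with Control means of 648 ± 400.5 and 580.2 ± 172 FPKM (SD, n = 5). Neither was called in AOM/DSS against Control (0.33 ± 0.31, adjusted P = 0.496 and -0.24 ± 0.20, adjusted P = 0.446). Those called were H2-Q4 (0.87 ± 0.19, adjusted P = 0.00796), Tapbpl (0.67 ± 0.13, adjusted P = 0.00494), Pdia3 (0.50 ± 0.14, adjusted P = 0.0223), Calr and Canx, and Pdia3, Calr and Canx are general folding factors of the endoplasmic reticulum. Of 8 genes of the proteasome core and its activators, Psme3 was higher (0.58 ± 0.11, adjusted P = 0.00327), and the core subunits Psmb5 and Psmb6 gave 0.10 and 0.01.

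Of 44 other interferon-induced genes, 42 were tested in AOM/DSS against Control, and 15 were higher and none lower. Ubd, a ubiquitin-like protein, differed by 3.73 ± 0.33, adjusted P = 3.39e-05, Serpina3g, a protease inhibitor, by 2.83 ± 0.40, adjusted P = 0.000722, and Ido1, a tryptophan-degrading enzyme, by 2.62 ± 0.22, adjusted P = 2.42e-05. Ly6e and Ifit1bl1 were the most abundant, and Ly6e differed by 1.31 ± 0.23, adjusted P = 0.00245 while Ifit1bl1 was not called (0.18 ± 0.39, adjusted P = 0.782). In PZH + AOM/DSS against PZH, Gbp5, Gbp10, Tgtp2 and Ido1 were higher and Ifi27 was lower. None of the 44 was called in PZH + AOM/DSS against AOM/DSS or in PZH against Control.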

How the data were processed

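For the RNA of colon from 20 mice, the study's methods name depletion of ribosomal RNA and then isolation of poly(A) RNA. Library construction went through CapitalBio Technology, with a kit that does not mark strand. According to the submitters' processing notes and the study's methods, quality was checked with NGSQC 2.3.3 and FastQC 0.11.5, reads were aligned to mm10 with HISAT2 2.1.0, and StringTie 1.3.3b gave the deposited FPKM of each transcript. Here FPKM were summed per gene over the Ensembl transcripts with GENCODE M21, and 22252 assembled transcripts were not used, so fragments given to them are missing from the sums.

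Genes at 0.5 FPKM or more in at least 5 of the mice compared were tested on log2(FPKM + 1) with limma 3.58.1 (R 4.3.3, intensity trend, Benjamini-Hochberg adjustment over all genes). The interaction was fitted over all 20 mice. The values are not counts, so no count model was used. On simulated data for AOM/DSS against Control, 50.5% of 200 genes changed 2-fold and 87.5% of 200 changed 4-fold were called. No other genes were changed there, while 23.6% of 15812 genes were called in the real comparison. These rates therefore need not hold for the real data. Each mouse is 1 library, and depth limits values near 0.

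The members and lists were chosen with earlier results of these data known. Per-mouse values are given, in each role group, for the 2 tested members with the highest mean, the 2 with the largest difference in AOM/DSS against Control and the 1 with the largest in each other comparison. From each further list up to 5 genes are named, the 2 most abundant and up to 3 with the largest difference among those called, and genes outside this rule are named to account for a count. Exons of 21 members overlap those of another gene, of which 9 have a partner at 1 FPKM or more. Alternatives were another pseudocount, no filter, a filter of 1 FPKM, median of ratios scaling, sample quality weights, all 20 mice in 1 model and leaving out each mouse. One gene of the receptor and signalling list and one marker gene are not reported here.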

Additional observations from a re-analysis of the deposited data

Results flagged for a closer look

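In 19 of 180 sets of 5 mice (45 members in 4 groups), 1 mouse lay further from the nearest of the others than Dixon's 95% critical value allows. Chance alone flags about 1 in 20 such sets where values are normally distributed. Whether FPKM are was not tested, so that rate need not hold here. The sets share mice and are not independent.

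PZH mouse 8 was the high one in 6 sets. Its values were 17.4 FPKM in Irf7 (next 9.65), 4.87 in Nlrc5 (next 2.12), 29.5 in Gbp2 (next 13.3), 10.2 in Tgtp1 (next 3.48), 18.4 in Psmb9 (next 8.46) and 18.7 in Tap2 (next 7.56). These 6 members span the transcription factors, the GTPases and the peptide-supply genes.

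Control mouse 37 was the high one in 4 sets, with 3.09 FPKM in Usp18 (next 1.19), 6.59 in Xaf1 (next 3.71), 2.22 in Cxcl9 (next 0.624) and 62.9 in Psmb8 (next 30.3). PZH + AOM/DSS mouse 15 was the high one in 4 sets, with 20.8 FPKM in Irf9 (next 6.55), 36.2 in Ifit1 (next 16.3), 12.3 in Xaf1 (next 6.39) and 44.2 in Cxcl10 (next 15.1). AOM/DSS mouse 33 was the high one in 2 sets, with 60.3 FPKM in Bst2 (next 44.6) and 4.82 in Gbp4 (next 1.69).

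Single sets were left in 3 mice. Mx1 was 1.30117 FPKM in Control mouse 48 (next 0.165), Oas1a was low in PZH mouse 53 at 6.66 FPKM (next 29.01), and Gbp7 was low in Control mouse 41 at 2.92 FPKM (next 3.63). The cause was not tested in any of these mice.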

How the results depend on the processing

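No paired analysis was possible because the groups share no mouse number. In AOM/DSS against Control 24 members were called, 20 to 28 with 1 mouse left out, and 15 without Control mice 17 and 50, a choice made after seeing the data. Under the other alternatives the count was 23 to 28. These counts are given without the share of all genes called in the same setting, and the adjustment runs over all genes. Of the 24 calls, 15 were kept under every alternative run, also without mice 17 and 50. They were Nlrc5, Usp18, Ddx58, Ifit1, Ifit2, Ifit3, Cmpk2, Gbp2, Gbp7, Igtp, Irgm1, Irgm2, Iigp1, Tgtp1 and Cxcl9. In PZH + AOM/DSS against PZH the 12 calls became 2 with no filter, 21 with all 20 mice in 1 model and 1 to 16 with 1 mouse left out, and 11 to 13 under the others; the cause was not tested. No member was called under any alternative in the PZH comparison with or without the model or in the interaction, and no called member changed sign. Median of ratios scaling moved the median of all genes by less than 0.1 in each comparison.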
